A study of Mus musculus with 6 samples.

Results

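The comparison set Dnmt3a-null (KO) against wild-type (WT) mouse neural stem cell cultures that had been left to differentiate without mitogens. It rested on 2 of the 6 arrays of the series, chosen by their titles, and the other 4 held the same genotypes while still proliferating. The cells came from the subventricular zone, taken with the walls of the lateral ventricles at postnatal day 14 to 21, and were expanded as monolayers in serum-free medium with EGF and FGF-2, each at 10 ng/ml. For differentiation they were replated for 2 days with mitogens and then kept for 3 days without them. The proliferating cells were harvested in mitogens. Each array was a 2-colour hybridisation of RNA from KO cells against RNA from WT cells, from 500 ng of total RNA each, so every KO over WT ratio was taken within an array. KO RNA carried Cy3 on replicate 1 and Cy5 on replicate 2. The labels call the arrays biological replicates and do not say whether the cultures came from separate mice or pools, so the p-values measure the spread between these arrays. They also do not say which part of Dnmt3a was removed or in which cells and at what age it was lost.

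Dnmt3a encodes a de novo DNA methyltransferase, an enzyme that adds methyl groups to unmethylated cytosines. Stem cells of the postnatal subventricular zone give rise to olfactory bulb interneurons, astrocytes and oligodendrocytes. When EGF and FGF-2 are withdrawn in culture, such cells leave the cell cycle and turn on neuronal and glial genes. The comparison asks how the cells that result differ when Dnmt3a is missing.

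Values are given on 2 scales. A signal is the log2 intensity of 1 channel after normalization, and a ratio is the log2 difference of KO minus WT on an array, given as the mean ± SD of both arrays (n = 2). A gene is called where the adjusted p of limma's test was under 0.05. In the 4 channels, signal well above background was found at 55.3% to 58.2% of the spots for genes, and 18062 genes were tested. Dnmt3a itself had signals of 7.82 and 7.69 in KO and 9.31 and 8.97 in WT cells on replicates 1 and 2. The KO signals lay below both WT signals, with a ratio of -1.38 ± 0.14 (adjusted p = 0.0154), and signal remained in KO cells. The ratios of its 3 probes on chromosome 12 (build mm7) were -1.49 and -1.28 at 3825243 to 3826024, -0.43 and -0.37 at 3826602 to 3826661, and -1.05 and -1.41 at 3830965 to 3831024. Whether these probes lie in the deleted part is not known here, and one outside it would check nothing. The stem cell markers Nes and Sox2 were well above background in all 4 channels. Xist was not well above background in any of them, and Ddx3y was at 9.06 and 9.78 in KO and 9.11 and 9.51 in WT cells. Of 22 microglial genes 5 were measured and none was called, and the defining markers Aif1, Cx3cr1, Csf1r and Itgam were not among those measured. Cldn5 and Cdh5 of endothelium, Dcn and Lum of fibroblasts and Ttr and Kl of the choroid plexus were not among the measured genes either. No endothelial gene was called of 14. Of 10 choroid plexus genes 1 was called (10% against 3.08% of all tested genes), Folr1 (1.44 ± 0.27, adjusted p = 0.0133, and 0.86 with the mean of its probes). Of 13 fibroblast and meningeal genes 8 were positive on both arrays, and 6 (46.2%) had KO signals above both WT signals, against 30.4% and 17.3% of all tested genes, with a median ratio of 0.26. Of the 13 genes 1 was called (7.69% against 3.08% of all tested genes), Thy1 (2.53 ± 0.04, adjusted p = 0.0258, and 1.61 with adjusted p = 0.0644 with the mean of its probes). Col1a1, a chain of type I collagen, had 8.31 and 7.47 in KO against 6.92 and 6.44 in WT cells (1.21 ± 0.26, adjusted p = 0.0639) and was called in 8 of 15 alternatives. The part of these genes in the other results was not tested.

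Of the 4 proliferating arrays, replicates 3 and 4 stood apart in sex-linked genes. On replicate 3 the log2 signal of Xist, an RNA made from the silenced X chromosome, was 12.68 for WT against 11.27 for KO, and on replicate 4 it was 13.33 against 11.06, while it lay between 5.92 and 6.08 in every other channel of the series. The Y-linked gene Ddx3y was at 6.05 for WT against 8.46 for KO on replicate 3, and at 5.89 against 8.83 on replicate 4. On the differentiating arrays its KO over WT log2 ratios were -0.05 and 0.27. The part of this imbalance in the results was not tested. Both arrays enter the estimate of the spread and the comparison with proliferating cells. Without them 969 genes were called in differentiating cells, 479 of them shared with the 557 called with all arrays.

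Loss of Dnmt3a went with changed signal of 557 genes, 3.08% of those tested, of which 394 were higher and 163 lower in KO cells (2.18% and 0.902%). Of the called genes, 248 were higher and 84 lower by at least 2-fold, and 61 and 9 by at least 4-fold. The largest rise was that of Kcne1l, a potassium channel subunit, with signals of 13.73 and 14.57 in KO against 9.62 and 9.87 in WT cells, 21.2-fold. The largest fall was that of Eya1, a transcriptional coactivator, with 7.28 and 7.07 in KO against 11.03 and 10.16 in WT cells, 10.7-fold. KO and WT channels did not overlap for either gene. Kcne1l was not called with Agilent's processed signals or without a filter on dim probes (adjusted p = 0.0946 and 0.0609). The size and rank of the fall of Eya1 depended on the probes and signals used: its log2 ratio was -3.42, and -1.85 with the mean of its probes, where Kit was at -2.67, and with processed signals it was -4.81, where Gad1 was at -5.67. The ratios of both arrays, which carried the dyes in opposite orientation, had the same sign for 60.9% of all tested genes. They also had it for every called gene, but calls were made on the mean of these same arrays, which favours this. Genes are no independent replicates of each other, and over 18059 of them the correlation was r = 0.704 (Pearson) and rho = 0.433 (Spearman). Where a called gene had several probes above background, all of them had the same sign for 140 of 149 genes. Each call rested on the brightest probe, and the share among all tested genes was not computed. The spread was estimated from all 6 arrays. With either differentiating array left out, no gene was called (an unadjusted p under 0.05 was reached by 1297 genes when replicate 1 was dropped and by 1862 when replicate 2 was), and this holds for every call below. Among 15 alternatives that kept both arrays, 59 of the 122 called genes examined singly were called in each.

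**Figure D1:**
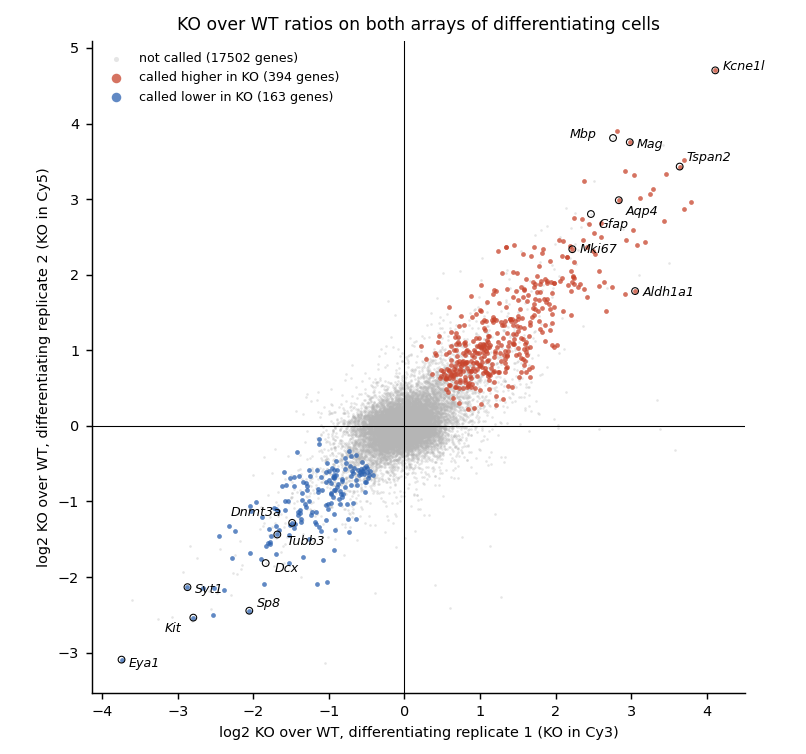
Log2 KO over WT ratio of each tested gene on differentiating replicate 1 (x axis, KO in Cy3) and replicate 2 (y axis, KO in Cy5); red and blue points are the 394 genes called higher and the 163 called lower in KO cells, grey points are not called, and circled points are named. Called genes lie in the quadrants where both arrays have the same sign, which calls made on the mean of both arrays favour. Mbp, Gfap and Dcx lie far from 0 on both arrays without being called.

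All gene lists here were chosen with earlier results of these data known, so their shares and directions are no independent evidence. Genes of mitosis rose together. Of 48 measured members, 33 were called higher in KO cells and none lower, 68.8% against 2.18% of all tested genes. The median ratio of the list was 1.04 (1.26 on replicate 1 and 0.93 on replicate 2), against -0.01 over all tested genes, and 47 of 48 members were positive on both arrays. KO signals lay above both WT signals for 45 members, 93.8% against 17.3% of all tested genes. In WT cells 10 of the 48 were not well above background on either array, and in KO cells 3.

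Mki67, a nuclear protein of cycling cells, had signals of 11.06 and 10.76 in KO and 8.84 and 8.42 in WT cells, a ratio of 2.28 ± 0.08 (4.85-fold, adjusted p = 0.0153). Cdc20, which activates the anaphase-promoting complex, had 12.07 and 11.73 against 9.92 and 9.5, a ratio of 2.19 ± 0.06 (adjusted p = 0.0134). Cenpe, a kinesin of the kinetochore, had 11.03 and 10.58 against 9.28 and 8.60, a ratio of 1.87 ± 0.16 (adjusted p = 0.0159). In each of these genes both KO channels were higher than both WT channels by more than the channels of a genotype differed. Cdca3, a trigger of mitotic entry (1.90 ± 0.02, adjusted p = 0.0158), and Kif20a, a kinesin of the central spindle (1.83 ± 0.06, adjusted p = 0.0141), rose as well. Ccnb1, the cyclin that drives entry into mitosis, rose by 1.27 ± 0.33 (adjusted p = 0.0223), and Top2a, which untangles sister chromatids, by 1.07 ± 0.41 (adjusted p = 0.0147). With processed signals the median of the list was 1.77, Ccnb1 was at 2.48 and Top2a at 2.16, and with the mean of a gene's probes Cenpe was at 0.74, Cdca3 at 1.25 and Top2a at 0.63. With median centring in place of loess, 10 of the mitosis genes were called, and Ccnb1 and Top2a were not (adjusted p = 0.0895 and 0.0507). Leaving out 1 proliferating array left 28 to 32 called.

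Mitotic genes are known for promoters that join a CCAAT box, the site of the factor NF-Y, with the cell cycle gene homology region TTTGAA, through which the genes are held off in resting cells. Sequences of 300 bases around the start site, from the RefSeq table for GRCm38.p6, were found for 40 of the 48 mitosis genes and for 34 of 40 genes of DNA replication and S phase. TTTGAA occurred on either strand in 70.0% of the mitosis promoters, in 11.8% of the S phase promoters and in 20.2% of the 27025 genes of the table. CCAAT occurred in 77.5%, 61.8% and 41.1%, and both occurred in 62.5%, 8.82% and 7.97%. The E2F motif TTTGGCGC was present in none of the mitosis promoters and in 14.7% of the S phase promoters, against 0.585% of the table. Within the mitosis list, TTTGAA was found in 67.9% of the 28 called and 75% of the 12 uncalled genes with a promoter sequence. CCAAT was found in 85.7% and 58.3% of them, and both motifs in 67.9% and 50%. The 4 stretches shown are the 120 bases before the start site of the called mitosis genes with the largest rise that hold both motifs there, a choice made after their values were seen. They run 5′ to 3′ along the strand of the gene, and capitals mark CCAAT and TTTGAA or their reverse complements ATTGG and TTCAAA.
Cdc20, chr4:118437344-118437463, minus strand: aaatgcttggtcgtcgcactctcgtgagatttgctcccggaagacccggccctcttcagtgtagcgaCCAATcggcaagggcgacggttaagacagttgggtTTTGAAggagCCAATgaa
Ube2c, chr2:164769809-164769928, plus strand: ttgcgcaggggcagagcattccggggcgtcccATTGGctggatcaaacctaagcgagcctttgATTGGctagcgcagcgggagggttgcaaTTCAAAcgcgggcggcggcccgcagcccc
Prc1, chr7:80294356-80294475, plus strand: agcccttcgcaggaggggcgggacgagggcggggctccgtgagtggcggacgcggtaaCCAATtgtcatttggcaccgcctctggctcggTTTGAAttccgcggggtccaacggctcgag
Kif22, chr7:127042421-127042540, minus strand: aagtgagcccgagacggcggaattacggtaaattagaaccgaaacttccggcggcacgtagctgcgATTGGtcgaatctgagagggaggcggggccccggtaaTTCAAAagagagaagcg

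The motif TTTGAA or its complement lay 18 bases before the start in Cdc20, 29 in Ube2c, 30 in Prc1 and 17 in Kif22. Ube2c, the ubiquitin-conjugating enzyme that works with the anaphase-promoting complex, had signals of 9.93 and 9.19 in KO against 8.06 and 7.56 in WT cells, a ratio of 1.75 ± 0.17 (adjusted p = 0.0147). Prc1, which bundles the microtubules of the central spindle, had 10.35 and 9.52 against 8.66 and 8.08 (1.56 ± 0.17, adjusted p = 0.0141), and Kif22, a chromosome-bound kinesin, 11.58 and 11.45 against 9.92 and 10.07 (1.52 ± 0.20, adjusted p = 0.0258). The KO channels did not overlap the WT channels in any of the 4 genes.

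Genes of DNA replication and S phase moved the same way by less. Of 40 measured members 5 were called higher and none lower, 12.5% against 2.18%, with a median ratio of 0.47 (0.45 and 0.48 on replicates 1 and 2), and 36 were positive on both arrays against 30.4% of all tested genes. Mcm6, a subunit of the replicative helicase, had signals of 11.76 and 11.46 in KO and 9.95 and 9.90 in WT cells, a ratio of 1.68 ± 0.18 (adjusted p = 0.0232). Uhrf1, which brings the maintenance methyltransferase Dnmt1 to replicated DNA, rose by 1.32 ± 0.01 (adjusted p = 0.0285), and the replication licensing factor Cdt1 by 0.98 ± 0.37 (adjusted p = 0.0288). The KO channels of all 3 lay above their WT channels. Pcna, the sliding clamp of the polymerases, was not called: its KO signals of 13.10 and 12.86 lay between the WT signals of 13.16 and 12.29. Without a dye term 1 S phase gene was called (Mcm6 at adjusted p = 0.0552), and without proliferating replicate 1, 2 or 4 the count was 9, 2 and 3. Without replicate 2 the adjusted p of Uhrf1 was 0.0555 and that of Cdt1 was 0.0514.

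Of 23 measured G1 cyclins and E2F genes 1 was called (4.35% against 3.08% of all tested genes), E2f2, a transcription factor of S phase entry, which rose by 1.86 ± 0.72 (adjusted p = 0.0266). Ccnd1, the main D-type cyclin of neural progenitors, was at 0.74 ± 0.04 (adjusted p = 0.157). Of 29 kinase inhibitors and growth arrest genes, 2 were called higher and 1 lower (10.3% against 3.08%). Cdkn1c, a cyclin-dependent kinase inhibitor, rose by 1.42 ± 0.06 (adjusted p = 0.0206), as did Gadd45b, a stress-induced growth arrest gene, by 2.09 ± 0.81 (adjusted p = 0.0320). Cdkn1b, the inhibitor that couples cell cycle exit to differentiation, had ratios of -1.13 and -0.24, and its fall (adjusted p = 0.0477) was not called in 10 of 15 alternatives, among them each one that left out 1 proliferating array (adjusted p = 0.0524 to 0.0736) and the fit without a dye term (adjusted p = 0.368), and it was at -0.29 with the mean of its probes. Gadd45b was not called without proliferating replicate 4 (adjusted p = 0.0614), nor Cdkn1c with Agilent's processed signals (adjusted p = 0.0518).

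**Figure D2:**
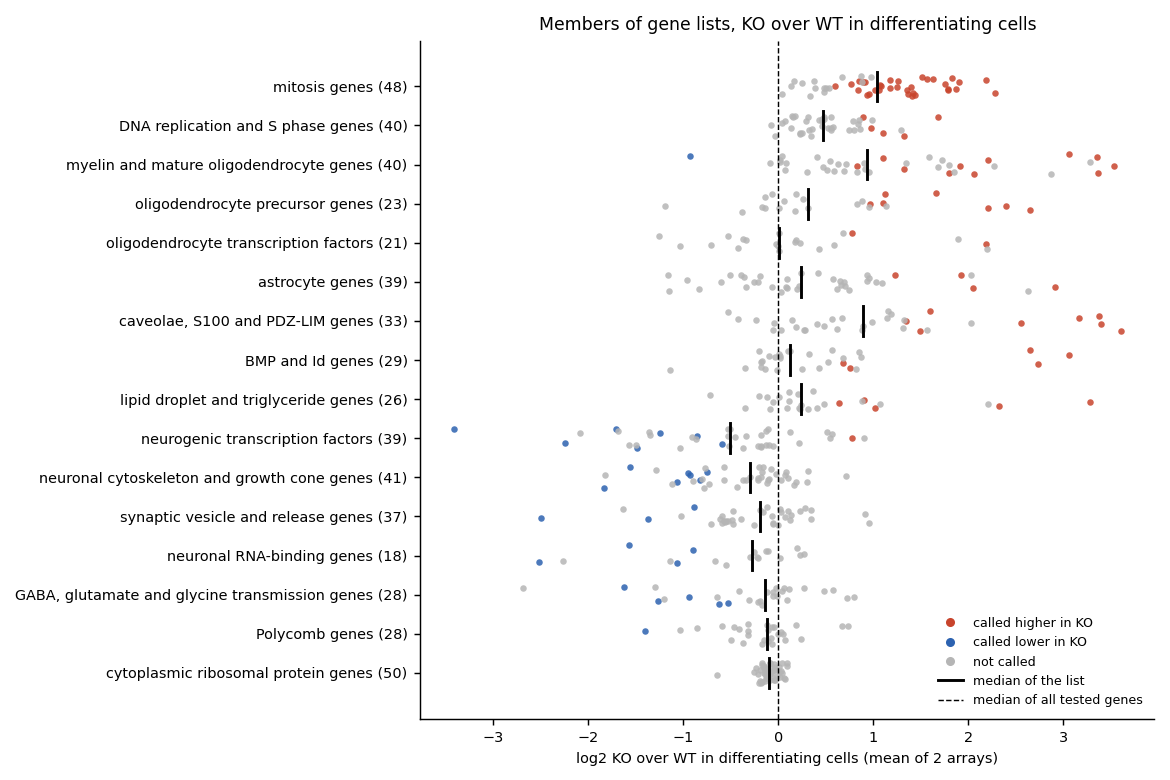
Mean log2 KO over WT ratio in differentiating cells (x axis, 2 arrays) of each measured member of 16 gene lists (rows, number of members in brackets), with called members in red (higher) or blue (lower), the list's median as a bar and the median of all tested genes as a dashed line. Mitosis genes lie almost wholly to the right of 0, with a median of 1.04, and neurogenic transcription factors mostly to the left, with a median of -0.51.

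Set beside the proliferating arrays, the signal of the mitosis genes was low in both genotypes after mitogen withdrawal. Their median signal was 8.69 and 8.42 in differentiating KO cells and 7.38 and 7.38 in differentiating WT cells. It was 10.41 to 11.79 in proliferating KO and 10.06 to 11.58 in proliferating WT cells, the lowest values being those of replicate 4 in both channels. For S phase genes the medians were 9.28 and 9.52 in differentiating KO, 8.75 and 8.70 in differentiating WT, and 9.21 to 11.97 over all proliferating channels. The differentiating arrays lay on another slide, scanned on another day, than the proliferating arrays, so condition and slide cannot be told apart in these levels. In proliferating cells no mitosis gene was called, against 0.952% of all tested genes, and the median ratio of the list was 0.31. The difference between the KO effects of both conditions was not called for any of the 48, though 34 had an unadjusted p under 0.05 (adjusted p = 0.0886 for Cdc20 and for Cdca3).

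**Figure D3:**
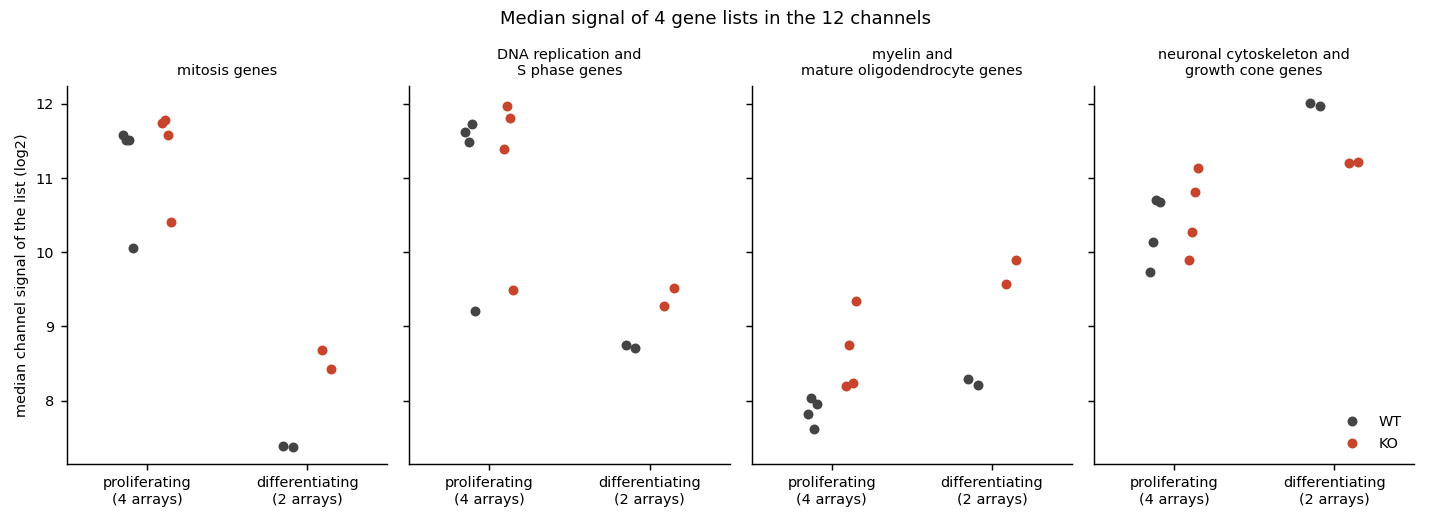
Median log2 signal of 4 gene lists (panels) in the 12 channels, WT in grey and KO in red, 1 point per channel of the 4 proliferating and 2 differentiating arrays. Differentiating KO points lie above the WT points for mitosis (8.69 and 8.42 against 7.38 and 7.38), S phase and myelin genes and below them for the neuronal cytoskeleton.

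In the oligodendrocyte lineage, transcription factors, precursor genes and myelin genes differed in how many members changed. Of 40 myelin and mature oligodendrocyte genes, 11 were called higher and 1 lower, 27.5% and 2.5% against 2.18% and 0.902% of all tested genes, with a median of 0.94 (0.95 and 1.06 on replicates 1 and 2), and 35 were positive on both arrays against 30.4% of all tested genes. KO channels lay above WT channels for 30 of the 40, 75% against 17.3% of all tested genes. Tspan2, a tetraspanin of myelinating cells, had signals of 11.65 and 11.49 in KO and 8.0 and 8.06 in WT cells, a ratio of 3.54 ± 0.15 (11.6-fold, adjusted p = 0.0129). Mag, the myelin-associated glycoprotein, had 14.32 and 14.56 against 11.34 and 10.81, a ratio of 3.37 ± 0.55 (adjusted p = 0.0342). Cnp, an enzyme of myelin cytoplasm, had 14.89 and 14.38 against 12.66 and 12.21, a ratio of 2.20 ± 0.05 (adjusted p = 0.0108). Both KO channels of these genes stood clear of both WT channels. Mobp, a protein of compact myelin (3.06 ± 0.07, adjusted p = 0.0129), Cldn11, the claudin of myelin tight junctions (3.36 ± 0.77, adjusted p = 0.0197), and Erbb3, a neuregulin receptor (1.80 ± 0.10, adjusted p = 0.0218), also rose. The called gene that fell was Cntn2, a contactin of axons and the juxtaparanode, which neurons express too. Its signal in KO cells did not clear the background, and it was at least 1.88-fold lower (adjusted p = 0.0156). With processed signals the median of the list was 1.80, Mobp was at 4.87 and Cntn2 at -2.82, and with the mean of its probes Mobp was at 1.85.

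A major myelin gene was not called although its ratio was large on both arrays. Mbp, myelin basic protein, had signals of 15.18 and 14.62 in KO and 12.42 and 10.81 in WT cells, a ratio of 3.28 ± 0.74 (adjusted p = 0.0769). The KO channels did not overlap the WT channels. Its ratio varied on the 4 proliferating arrays, with an SD of 1.26, and these enter the estimate of the spread. With the 2 differentiating arrays fitted alone, the adjusted p of Mbp was 5.21e-04. That fit has 1 residual degree of freedom and called 1586 genes, 27 of the myelin list among them. Mag was not called without proliferating replicate 2 (adjusted p = 0.0645).

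Of 23 oligodendrocyte precursor genes 7 were called higher and none lower, 30.4% against 2.18% of all tested genes called higher. The median was 0.31 over the mean ratios, 0.71 on replicate 1 and 0.12 on replicate 2. Matn4, a matrilin of the precursor matrix, rose by 2.21 ± 0.51 (adjusted p = 0.0285), Bcas1, a marker of early myelinating cells, by 2.40 ± 0.12 (adjusted p = 0.0441), and Enpp6, a choline phosphodiesterase of newly formed oligodendrocytes, by 1.66 ± 0.42 (adjusted p = 0.0211). Receptors and surface markers of precursor cells were not called. Pdgfra, the receptor through which precursors proliferate, had signals of 10.72 and 11.02 in KO and 11.02 and 11.48 in WT cells, and Cspg4, the NG2 proteoglycan, a ratio of 0.83 ± 0.10 (adjusted p = 0.388). The channels of Pdgfra touched between the genotypes. Gpr17, a receptor of late precursors, was at 0.88 ± 0.31 (adjusted p = 0.130). In proliferating cells (n = 4) Matn4 was at 2.06 ± 0.79, Bcas1 at 2.07 ± 1.09, Gpr17 at 2.35 ± 0.40 and Enpp6 at 0.53 ± 0.47. The median was 0.87 with processed signals, which did not call Enpp6 (adjusted p = 0.0578). Without proliferating replicate 1 or 2, 4 and 3 of the list were called, and without replicate 2 Matn4 and Bcas1 were not (adjusted p = 0.0512 and 0.0686). Bcas1 was not called without replicate 1 either (adjusted p = 0.0681).

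Of 21 transcription factors of the lineage 2 were called higher, Sox10 and St18, 9.52% against 2.18% of all tested genes. The median ratio was 0.01. Sox10, which drives myelin gene transcription, had signals of 12.85 and 12.88 in KO and 10.70 and 10.65 in WT cells, a ratio of 2.19 ± 0.06 (4.56-fold, adjusted p = 0.0170). Olig2, which specifies the lineage, had 12.24 and 12.02 against 12.90 and 12.76, a ratio of -0.70 ± 0.06 (adjusted p = 0.0777), and Olig1 a ratio of -0.34 ± 0.33 (adjusted p = 0.623). Sox10 thus stood higher in both KO channels while both KO channels of Olig2 lay below the WT channels. Nkx2-2, which promotes oligodendrocyte maturation, was at 1.89 ± 0.11 (adjusted p = 0.0516). Several lineage genes are shared with Schwann cells, whose 26 measured genes had a median of 0.62 with 3 called higher (11.5% against 2.18%). The called genes were Sox10, Erbb3 and Pou3f1, and 16 of the 26 were positive on both arrays (61.5% against 30.4%). Pmp22, a protein of peripheral myelin, was at 0.97 ± 0.82 (adjusted p = 0.173), and Egr2, a factor of myelinating Schwann cells, had ratios of 1.52 and 0.03 (adjusted p = 0.512). Prx stood at 0.07 ± 0.03 and Foxd3 at -0.04 ± 0.06, and the part of this cell type was not tested.

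Astrocyte genes leaned towards higher signal in KO cells, though not all of them. Of 39 measured members 4 were called higher and none lower, 10.3% against 2.18% of all tested genes, with a median of 0.24. On both arrays 22 were positive and 9 negative, 56.4% and 23.1% against 30.4% and 30.5% of all tested genes. Aqp4, the water channel of astrocyte endfeet, had signals of 13.16 and 12.68 in KO and 10.33 and 9.69 in WT cells, a ratio of 2.91 ± 0.11 (7.52-fold, adjusted p = 0.0077). Gfap, the intermediate filament of reactive and subventricular astrocytes, had 14.80 and 13.15 against 12.34 and 10.35, a ratio of 2.64 ± 0.24 (adjusted p = 0.101). The KO channels stood above the WT channels for both genes. Slc1a3, the glutamate transporter GLAST of radial glia and astrocytes, had 14.14 and 14.78 against 15.41 and 15.43, a ratio of -0.96 ± 0.44 (adjusted p = 0.117), with both KO channels below. Clu, a secreted chaperone, rose by 2.06 ± 0.18 (adjusted p = 0.0483), and this was not called without proliferating replicate 2 or 4 (adjusted p = 0.0807 and 0.0791). In bulk RNA, fewer or more cells of a type cannot be told apart from less or more RNA per cell, here and for every cell type above and below.

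BMP signalling, which favours astrocytes over neurons in these cultures, acts through Id genes, inhibitors of basic helix-loop-helix factors. Of 29 measured members of the pathway 5 were called higher and none lower, 17.2% against 2.18% of all tested genes, with a median of 0.12. The ligand Bmp4 had signals of 10.68 and 10.23 in KO and 8.08 and 7.54 in WT cells, a ratio of 2.65 ± 0.06 (adjusted p = 0.0334). Of the targets, Id3 had 13.07 and 11.50 against 9.99 and 9.10 (2.74 ± 0.48, adjusted p = 0.0077), and Id1 12.06 and 11.27 against 8.63 and 8.57 (3.07 ± 0.51, adjusted p = 0.0330). All 3 had KO channels clear of the WT channels. Bmp6, another ligand (0.76 ± 0.18, adjusted p = 0.0461), and the receptor Bmpr1a (0.68 ± 0.37, adjusted p = 0.0493) rose by less. The median was 0.44 and Bmp6 at 2.25 with processed signals. Id3 was called in all 15 alternatives that kept both differentiating arrays. Without proliferating replicate 4 Bmp4, Id1 and Bmp6 were not called (adjusted p = 0.0649, 0.0614 and 0.0704), nor Bmp6 without replicate 1 or 3 (adjusted p = 0.0689 and 0.0667), nor Bmpr1a without replicate 1, 2 or 3 (adjusted p = 0.0635 to 0.0762).

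Neuronal genes fell in several groups. Of 39 neurogenic transcription factors 7 were called lower, 17.9% against 0.902% of all tested genes, and 1 higher, with a median of -0.51 (-0.57 and -0.37 on replicates 1 and 2). KO channels lay below WT channels for 23 of them, 59.0% against 15.1% of all tested genes. Sp8, a zinc finger factor of olfactory interneurons, had signals of 7.02 and 7.95 in KO and 9.08 and 10.40 in WT cells, a ratio of -2.25 ± 0.28 (adjusted p = 0.0147). Bcl11b, a zinc finger factor of postmitotic neurons, had 6.84 and 6.93 against 8.37 and 8.38, a ratio of -1.49 ± 0.06 (adjusted p = 0.0158). Myt1l, which represses non-neuronal genes in neurons, had 6.91 and 6.12 against 8.02 and 7.51, a ratio of -1.25 ± 0.20 (adjusted p = 0.0147), and was well above background in KO cells on 1 of 2 arrays. The KO channels of all 3 lay below their WT channels. Eya1 (-3.42 ± 0.46, adjusted p = 0.0271) and Dmrta2 (-1.71 ± 0.17, adjusted p = 0.0264), a factor of the dorsal forebrain, fell too. Dlx2, a homeobox factor of interneuron precursors, was not called, at -1.69 ± 0.44 (adjusted p = 0.271). The called gene that rose was St18, a relative of Myt1l (0.77 ± 0.11, adjusted p = 0.0410). It was not well above background in WT cells and at least 1.69-fold higher in KO cells, and it was not called without proliferating replicate 1, 3 or 4 (adjusted p = 0.0563, 0.0621 and 0.0736). Processed signals gave a median of -0.87 for the list, with Bcl11b at -2.77, Myt1l at -3.22 and St18 at 2.18.

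Among genes of the neuronal cytoskeleton and growth cone 7 of 41 were called lower and none higher, 17.1% against 0.902% of all tested genes. The median of the list was -0.29, and 30 (73.2%) were negative on both arrays against 30.5% of all tested genes. Tubb3, the tubulin of young neurons, had signals of 10.25 and 10.43 in KO and 11.93 and 11.87 in WT cells, a ratio of -1.56 ± 0.17 (2.95-fold lower, adjusted p = 0.0147). Map2, a dendritic microtubule protein, had 12.16 and 12.54 against 13.02 and 13.58, a ratio of -0.95 ± 0.13 (adjusted p = 0.0159). Add2, a neuronal adducin that caps actin, had 9.78 and 9.38 against 11.69 and 11.14, a ratio of -1.83 ± 0.10 (adjusted p = 0.0177). Each gene had both KO channels below both WT channels. Dcx, the microtubule protein of migrating neuroblasts, had 10.74 and 10.59 against 12.58 and 12.40, a ratio of -1.83 ± 0.01, and was not called (adjusted p = 0.10, and 4.75e-04 with the differentiating arrays fitted alone). Its proliferating ratios had an SD of 0.84. With the mean of its probes Add2 was at -0.88. Without proliferating replicate 2, 3 or 4, 4 of the list were called in each case.

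Of 37 synaptic vesicle and release genes 3 were called lower and none higher (8.11% against 0.902% of all tested genes called lower), with a median of -0.19. Syt1, the calcium sensor of vesicle release, had signals of 7.03 and 7.15 in KO and 9.91 and 9.29 in WT cells, a ratio of -2.50 ± 0.52 (5.67-fold lower, adjusted p = 0.0127). Snap25, a SNARE protein of the presynaptic membrane, fell with -1.38 ± 0.16 (adjusted p = 0.0254). Syp, the vesicle protein synaptophysin, was at -0.26 ± 0.30 (adjusted p = 0.264). Of 28 genes of GABA, glutamate and glycine transmission 5 were called lower and none higher (17.9% against 0.902%), with a median of -0.14. Slc32a1, which loads GABA into vesicles, had 6.62 and 7.63 in KO against 7.78 and 9.73 in WT cells (-1.62 ± 0.67, adjusted p = 0.0284), and the AMPA receptor subunit Gria4 had 7.94 and 7.5 against 9.48 and 8.49 (-1.27 ± 0.39, adjusted p = 0.0145). Gad1, which makes GABA, was not well above background in KO cells, with a mean at least 6.46-fold lower, and was not called (adjusted p = 0.0715). The WT channels stood above the KO channels for Slc32a1, Gria4 and Gad1. With processed signals the medians of the lists were -0.29 and -0.33, with Syt1 at -3.88, Snap25 at -2.12 and Slc32a1 at -2.90, and with the mean of its probes Gria4 was at -0.83. Without proliferating replicate 2, 3 or 4 the count of called transmission genes was 1, 3 and 2, with Slc32a1 at adjusted p = 0.0542 without replicate 2, and Snap25 was not called without replicate 4 (adjusted p = 0.0532).

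**Figure D4:**
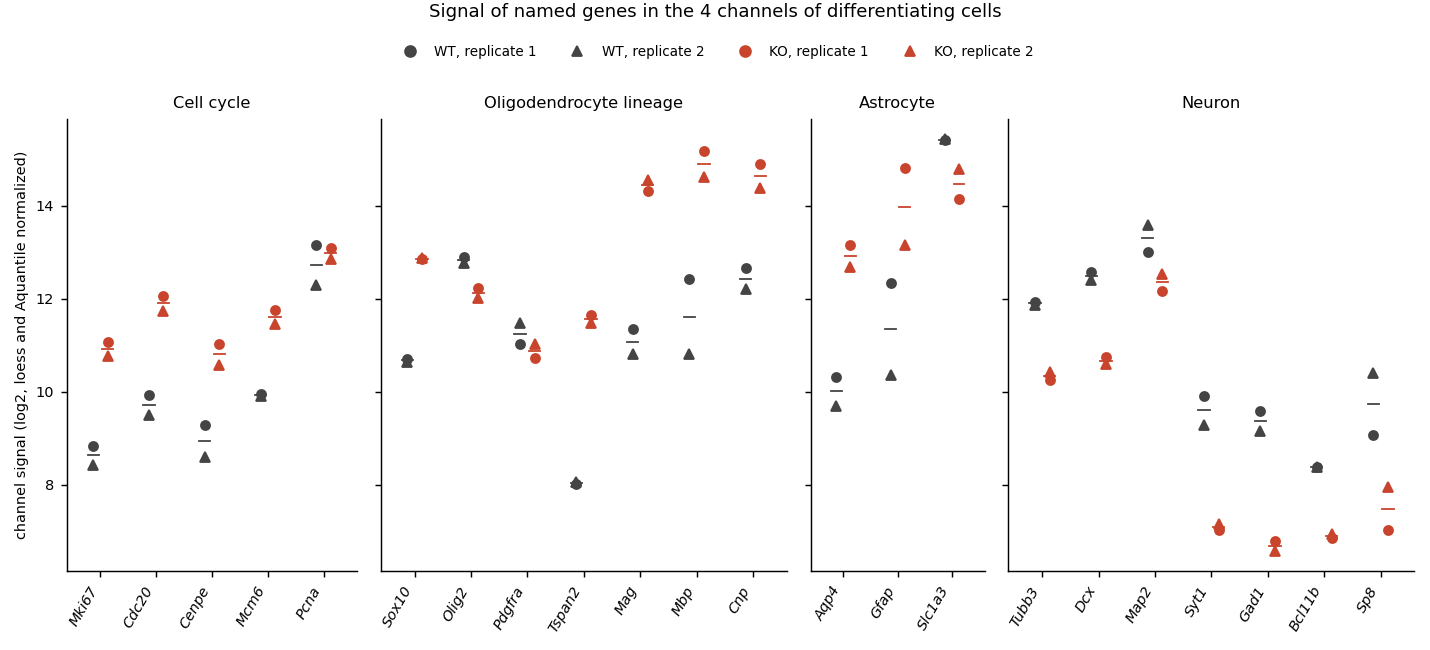
Normalized log2 signal (y axis) of 22 named genes in the 4 channels of differentiating cells, WT in grey and KO in red, circles for replicate 1, triangles for replicate 2 and short lines for the mean of both. Mki67 lies at 10.76 and 11.06 in KO against 8.42 and 8.84 in WT cells, and Syt1 at 7.03 and 7.15 against 9.29 and 9.91, while the channels of Pcna overlap.

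Other neuronal genes that fell bind RNA or mediate contact between cells. Of 18 neuronal RNA-binding genes 4 were called lower and none higher, 22.2% against 0.902% of all tested genes called lower. The median was -0.27 (-0.50 and -0.10 on replicates 1 and 2). Elavl2, which stabilises neuronal mRNAs, had signals of 9.76 and 10.03 in KO and 11.79 and 11.16 in WT cells (-1.57 ± 0.64, adjusted p = 0.0233). Its relative Elavl3 was at 0.23 ± 0.09 (adjusted p = 0.819), with the KO channels slightly above the WT channels. Of 44 adhesion and guidance genes 2 were called higher and 3 lower, 4.55% and 6.82% against 2.18% and 0.902%, with a median of -0.06. Nxph1, a ligand of neurexins, had 8.63 and 8.74 against 10.91 and 10.49 (-2.01 ± 0.38, adjusted p = 0.0159). Gjd2, the connexin of neuronal gap junctions, did not clear the background in KO cells and was at least 4.84-fold lower (adjusted p = 0.0145). Efnb3, an ephrin, rose by 1.23 ± 0.40 (adjusted p = 0.0154). Without proliferating replicate 3, 2 of the RNA-binding genes were called. With the mean of its probes Elavl2 was at -0.96, and with processed signals Gjd2 was at -4.66 and the median of the adhesion list -0.19.

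Further genes that fell by a large amount were outside these lists or in others. Kit, the receptor of stem cell factor, had signals of 7.97 and 8.09 in KO and 10.76 and 10.63 in WT cells, a ratio of -2.67 ± 0.18 (6.35-fold lower, adjusted p = 0.0154). The receptor gene Gpr149 did not clear the background in KO cells and was at least 5.04-fold lower (adjusted p = 0.0077). Adamts5, a protease of the proteoglycan matrix, fell with -1.70 ± 0.01 (adjusted p = 0.0129), and Slc14a2, a urea transporter, with -1.82 ± 0.60 (adjusted p = 0.0211). Tenm2, a teneurin of synaptic contacts, fell with -1.67 ± 0.14 (adjusted p = 0.0197). With processed signals Gpr149 was at -4.33, Adamts5 at -2.82 and Tenm2 at -2.81 without being called (adjusted p = 0.0870), and with the mean of a gene's probes Gpr149 was at -1.41 and Slc14a2 at -0.92. Of the 20 genes with the largest fall 5 are left out here because the array names them by a clone or an accession.

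A list of caveolar, S100 and PDZ-LIM genes, which shape the membrane and the actin cortex, had the third highest median of the 41 lists. It also held genes outside these families, among them Ramp1, the member with the largest rise. Of 33 measured members 8 were called higher and none lower, 24.2% against 2.18% of all tested genes. The median was 0.90 (1.1 and 0.83 on replicates 1 and 2). This list too was assembled with results of these data known, so its direction is no independent evidence. Cav1, the main coat protein of caveolae, had signals of 10.72 and 10.65 in KO and 7.25 and 7.31 in WT cells, a ratio of 3.40 ± 0.09 (adjusted p = 0.0217). Ahnak, a giant scaffold under the membrane, had 11.07 and 11.22 against 8.47 and 8.72, a ratio of 2.55 ± 0.07 (adjusted p = 0.0202). Ramp1, an accessory protein of a receptor for the peptide CGRP, had 12.69 and 12.22 against 8.99 and 8.70, a ratio of 3.61 ± 0.13 (adjusted p = 0.0077). No KO channel overlapped a WT channel in these genes. With the mean of a gene's probes Cav1 was at 1.94 and Ahnak at 1.35. S100a6, a calcium-binding protein of progenitors, had ratios of 3.79 and 2.97 (adjusted p = 0.0443), and was not called without proliferating replicate 2 or 4 (adjusted p = 0.0750 and 0.0798).

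Some growth factor, matrix and lipid droplet genes were called higher. Mdk, the growth factor midkine, had signals of 13.15 and 12.52 in KO and 10.23 and 9.15 in WT cells, a ratio of 3.14 ± 0.32 (adjusted p = 0.0077). Gas6, a ligand of receptor tyrosine kinases of the TAM family, had 13.12 and 12.46 against 9.83 and 9.33 (3.21 ± 0.11, adjusted p = 0.0443), and its receptor Mertk rose by 0.90 ± 0.07 (adjusted p = 0.0421). Of 37 matrix genes 3 were called higher, 8.11% against 2.18% of all tested genes. Among them were Mmp14, a membrane-bound metalloprotease (2.69 ± 0.34, adjusted p = 0.0127), and Col9a3, a chain of type IX collagen (2.27 ± 0.52, adjusted p = 0.0129). Of 26 lipid droplet and triglyceride genes 5 were called higher and none lower (19.2% against 2.18% called higher), with a median of 0.24. Cidea, a protein of the lipid droplet surface, had 11.18 and 10.50 against 7.48 and 7.64 (3.28 ± 0.59, adjusted p = 0.0085), and Lpl, which releases fatty acids from lipoproteins, 10.39 and 9.07 against 7.48 and 7.32 (2.33 ± 0.83, adjusted p = 0.0262). The KO channels stood above the WT channels in Mdk, Gas6, Cidea and Lpl. Cholesterol and fatty acid synthesis genes had a median of -0.31 with 1 of 37 called (2.7% against 3.08% of all tested genes). On both arrays 20 were negative (54.1% against 30.5%). The arrays differed, with medians of -0.04 on replicate 1 and -0.68 on replicate 2. Without proliferating replicate 2 or 4 Gas6 was not called (adjusted p = 0.0603 and 0.0743), nor was Mertk without replicate 1, 2 or 3 (adjusted p = 0.0508 to 0.0573).

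Of 37 Wnt genes 2 ligands were called higher and 1 lower, 8.11% of the list against 3.08% of all tested genes. Wnt9a had signals of 7.63 and 8.18 in KO and 6.67 and 7.22 in WT cells (0.96 ± 0.00, adjusted p = 0.0154), Wnt7b rose by 0.97 ± 0.17 (adjusted p = 0.0170), and Wnt3 fell with -0.93 ± 0.05 (adjusted p = 0.0440). Of 26 Notch genes 1 was called (3.85%), Nrarp, a feedback inhibitor induced by Notch, with 8.15 and 8.21 against 9.49 and 9.95 (-1.54 ± 0.28, adjusted p = 0.0215). Hes5, the main Notch target in neural stem cells, was at -1.26 ± 0.64 (adjusted p = 0.437), and its channels did not overlap. Of 19 hedgehog genes 1 was called (5.26%), the inhibitor Hhip, which was not well above background in WT cells and at least 1.56-fold higher in KO cells (adjusted p = 0.0434). The receptor Ptch1, a target of the pathway, was at -0.69 ± 0.33 (adjusted p = 0.112). With processed signals Wnt9a was at 1.78 and Hhip at 2.43. Wnt3 was not called without proliferating replicate 1, 3 or 4 and Hhip not without 2, 3 or 4 (adjusted p up to 0.0616 for Wnt3 and 0.0797 for Hhip).

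Of 23 genes of DNA methylation and demethylation 2 were called higher, Uhrf1 and Gadd45b, and 1 lower, Dnmt3a itself. These were 8.7% and 4.35%, against 2.18% and 0.902% of all tested genes. Dnmt1, the maintenance methyltransferase, had signals of 10.13 and 10.23 in KO and 10.20 and 10.17 in WT cells. Of 28 Polycomb genes 1 was called (3.57% against 3.08% of all tested genes), Cbx8, a subunit that reads methylated histone H3. Cbx8 was at -1.40 ± 0.42 (adjusted p = 0.0345, and 0.0601 without proliferating replicate 4). Of the list 17 were negative on both arrays (60.7% against 30.5% of all tested genes), with a median of -0.11. Many germline genes are silenced by methylation in somatic cells. Of 16 measured germline and pluripotency genes Xlr3c rose (2.02 ± 0.09, adjusted p = 0.0412) and Rhox2a fell (-1.19 ± 0.06, adjusted p = 0.0154), and of 35 imprinted genes 2 rose, Cdkn1c and Ddc (2.55 ± 0.28, adjusted p = 0.0325), so 12.5% and 5.71% were called against 3.08% of all tested genes. Xlr3c was not called without proliferating replicate 1 or 3 (adjusted p = 0.0611 and 0.0570). Igf2, not well above background in WT cells, and H19, a classic imprinted pair, were at 0.48 ± 0.16 (adjusted p = 0.0685) and 0.73 ± 0.29 (adjusted p = 0.162). None of 12 measured Hox genes was called. Of 34 forebrain patterning genes 2 were called higher and 3 lower (5.88% and 8.82% against 2.18% and 0.902%). Those called higher were Pou3f1 (1.78 ± 0.76, adjusted p = 0.0163) and Nr2f2. Nr2f2 was not well above background in WT cells and at least 3.99-fold higher in KO cells (adjusted p = 0.0217). Eya1 and Dmrta2 were among those that fell. With processed signals the median of the Polycomb genes was -0.21, Rhox2a was at -2.33 and Nr2f2 at 4.01, and with the mean of its probes Cbx8 was at -0.80.

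Ependymal and cilia genes had 6 of 32 members called higher and 2 lower, 18.8% and 6.25% against 2.18% and 0.902% of all tested genes. The median was 0.24. Mlf1 had signals of 8.84 and 9.48 in KO and 7.84 and 7.61 in WT cells (1.44 ± 0.61, adjusted p = 0.0215), the axonemal dynein Dnahc9 rose by 0.92 ± 0.36 (adjusted p = 0.0195), and Foxj1, the master factor of motile cilia, by 1.27 ± 0.38 (adjusted p = 0.0493). The KO channels of all 3 lay above their WT channels. Foxj1 was not called without proliferating replicate 1 or 3 (adjusted p = 0.0741 and 0.0702). With the mean of its probes Dnahc9 was at 0.31 and not called (adjusted p = 0.124), nor was it with median centring (adjusted p = 0.0699). The list held 4 to 6 called genes without 1 proliferating array. Of 31 stem and radial glia genes 1 was called (3.23% against 3.08% of all tested genes). This was Prom1, a membrane protein of ependyma and stem cells (1.93 ± 0.50, adjusted p = 0.0220, and 3.20 with processed signals). Nes had 11.35 and 11.56 in KO against 11.71 and 12.42 in WT cells (-0.61 ± 0.36, adjusted p = 0.0635), and Sox2 a ratio of -0.17 ± 0.12 (adjusted p = 0.579). Of 30 interferon response genes 2 were called higher (6.67% against 2.18%), Ifitm3 (1.58 ± 0.12, adjusted p = 0.0170) and Gbp2 (1.49 ± 0.53, adjusted p = 0.0368). Gbp2 was not called without proliferating replicate 2, 3 or 4 (adjusted p up to 0.0660). None of 50 cytoplasmic ribosomal protein genes, with a median of -0.10, and none of 22 glycolysis genes, with a median of 0.27, was called.

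Some of these ratios also differed from those in proliferating cells, where the genotypes were compared on 4 other arrays. The difference of the KO effects, differentiating minus proliferating, was called for 9 genes, 0.0498% of those tested. In Aqp4 the proliferating ratio was 0.45 ± 0.19 (n = 4) and the difference 2.46 (adjusted p = 0.0395), and in Cidea 0.21 ± 0.24 and 3.07 (adjusted p = 0.0443). Tspan17, a tetraspanin, went from -0.07 ± 0.13 to 1.59 ± 0.17 (difference 1.66, adjusted p = 0.0395), and Bbox1, the last enzyme of carnitine synthesis, from -0.09 ± 0.14 to 1.69 ± 0.21 (difference 1.78, adjusted p = 0.0443). The differentiating ratios of these 4 genes lay above all 4 proliferating ratios. Rgs16, a regulator of G protein signalling, was lower in KO on all 4 proliferating arrays (-0.74 ± 0.43) and higher on both differentiating arrays (1.49 ± 0.43), a difference of 2.23 (adjusted p = 0.0395). Gpr149 was at 0.12 ± 0.10 and 9130430L19Rik, a transcript without an assigned function, at 0.48 ± 0.30 in proliferating cells, with differences of -2.45 and -2.89 (adjusted p = 0.0395 for each). In Cdk6, the kinase partner of D-type cyclins, the effect was in proliferating cells (1.80 ± 0.47), and the differentiating arrays stood at -0.42 and 0.58 (difference -1.72, adjusted p = 0.0443). The ninth gene is named by an accession on the array. Without any 1 of the 6 arrays, the difference was called for 0 genes (920 to 2590 at an unadjusted p under 0.05), and condition and slide cannot be told apart in it. Without proliferating replicates 3 and 4, which stood apart in sex-linked genes, it was called for 0 genes (2125 at an unadjusted p under 0.05).

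**Figure D5:**
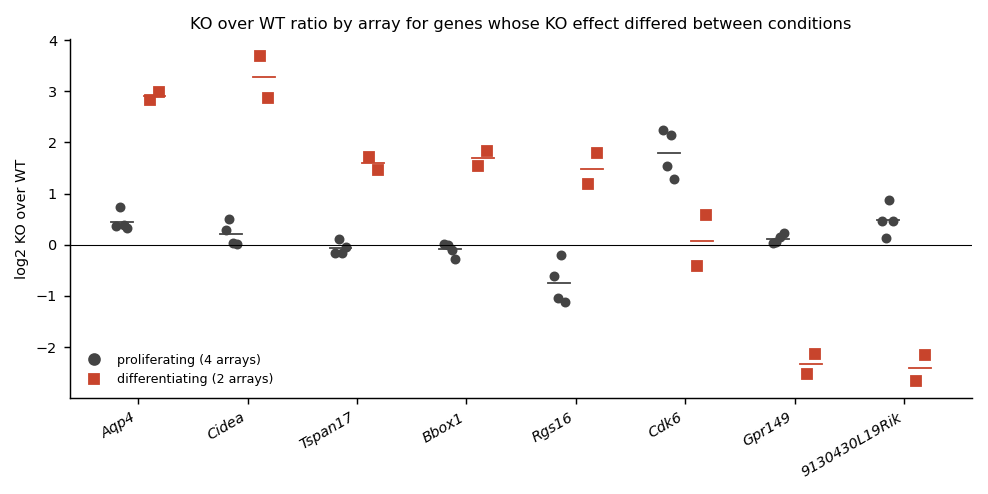
Log2 KO over WT ratio (y axis) of 8 genes on each of the 4 proliferating (grey) and 2 differentiating arrays (red squares), with lines at the means. Aqp4, Cidea, Tspan17 and Bbox1 lie above their proliferating points, Gpr149 and 9130430L19Rik below theirs, and Rgs16 on opposite sides of 0.

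Most other genes named here did not differ between the conditions by this test. Sox10 was at 2.46 ± 0.49 in proliferating cells (n = 4) and 2.19 ± 0.06 in differentiating cells, a difference with adjusted p = 0.782. Eya1 (-2.79 ± 0.85), Sp8 (-1.70 ± 0.29) and Dmrta2 (-1.30 ± 0.41) were low in KO cells in both conditions, with adjusted p from 0.447 to 0.736 for the difference. Neuronal genes that fell after mitogen withdrawal stood nearer 0 before it, Tubb3 at -0.28 ± 0.29 and Syt1 at -0.14 ± 0.26, and Bcl11b was at 0.50 ± 0.24. The differences of these 3 genes had adjusted p = 0.0938, 0.0557 and 0.0557. Kit was at 0.02 ± 0.50 (adjusted p = 0.0886 for the difference) and Mki67 at 0.41 ± 0.45 (adjusted p = 0.0955). A p above the threshold does not show that the effects were alike, and these tests rest on 2 differentiating arrays.

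The arrays differed most from each other in 5 called genes. Aldh1a1, which makes retinoic acid, had ratios of 3.05 on replicate 1 and 1.78 on replicate 2, and Lpl of 2.91 and 1.74. Gadd45b had 2.66 and 1.52, Cldn11 2.82 and 3.91, and Pcsk5, a proprotein convertase, -1.42 and -0.34. In all 5 the sign was the same on both arrays, and the KO channels did not overlap the WT channels. Aldh1a1 was not called without proliferating replicate 2 (adjusted p = 0.0667), nor Pcsk5 with the differentiating arrays alone (adjusted p = 0.0793) or without a dye term (adjusted p = 0.389), and with the mean of its probes it was at -0.51 (adjusted p = 0.112).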

How the data were processed

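RNA was hybridised to 2-colour Agilent arrays. The authors deposited scanner output whose intensity columns hold the mean and background signals of each spot (Agilent Feature Extraction 9.5.1.1, per the file headers). The deposited log10 ratio columns, and the authors' value table of log10 ratios, which equals them turned to KO over WT, were used to check directions (largest difference 5e-06). Well above background and outlier flags were taken as deposited, per the file headers. What the scanner software had done to the processed signals is as the file headers record.

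The members and gene lists were chosen with earlier results of these data known. From the intensities, background was corrected with normexp (offset 50), arrays were normalized by loess and channels by Aquantile in limma 3.58.1 (R 4.3.3). The 1639 control spots per array had no weight, and 859 outlier gene spots were left out. Of 41174 probes, 22951 were named through their accession in RefSeq and 18223 kept the name of the array design. The brightest probe stood for each of 8526 genes with several. Testing required 1 channel or both to be well above background on at least 2 of the 6 arrays. All 6 arrays entered 1 limma fit with a KO effect per condition and a dye term (residual degrees of freedom 3, prior 2.565), and p-values were adjusted by Benjamini-Hochberg over 18062 genes. The number of arrays limits the precision.

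For an "at least" fold, the dim group's value on each array was the larger of its own signal and the dimmest signal that any probe well above background had there, and the log2 means of both groups were compared. Channel signals are open to dye bias, which the opposite dyes of both arrays balance in the mean. Single genes were taken by rule: Dnmt3a, the 20 largest called rises and falls, the defining and the 5 most changed called members of each list, the 5 largest gaps between arrays and the genes called for the difference. Ube2c, Prc1 and Kif22 were chosen through their promoters. The fit was tested on simulated data. The alternatives were Agilent's processed signals, median centring, other filters on dim probes, no dye term, array weights, an intensity trend, the mean of a gene's probes, a replicate block and arrays left out. Replicate numbers 1 and 2 occur in both conditions, and same-numbered arrays were not treated as pairs. Their deviations from the group means had correlations of -0.369 and -0.288 across genes. Same-numbered arrays carried opposite dyes and no dye effect was removed, so these correlations cannot show whether the arrays were paired. In the fit with a replicate block and a dye term, the correlation within blocks was 0.0523. The CpG content of called genes was not compared because under 80% had a promoter sequence. Some genes of these lists enter the counts and medians and are not reported singly here.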

Additional observations from a re-analysis of the deposited data

Results flagged for a closer look

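The KO effect differed between differentiating and proliferating cells, by the interaction contrast of the limma fit, in 8 named genes. The difference, differentiating minus proliferating, was 2.46 for Aqp4, 3.07 for Cidea, 2.23 for Rgs16, 1.66 for Tspan17 and 1.78 for Bbox1. It was -2.45 for Gpr149, -2.89 for 9130430L19Rik and -1.72 for Cdk6. The adjusted p lay between 0.0395 and 0.0443, and none was called without any 1 of the 6 arrays.

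On the proliferating arrays, which enter the estimate of the spread, 1 of 4 arrays lay far from the others in 5 of 36 values examined, and chance alone gives about 1 in 20. Proliferating replicate 2 had a ratio of 1.73 for Sox10 and 0.74 for Aqp4, and replicate 1 a ratio of 0.14 for Bcl11b. On replicate 4 the median ratio of the oligodendrocyte precursor genes was 0.93 and that of the neuronal cytoskeleton genes 0.33.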

How the results depend on the processing

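The spread rests on 6 arrays, and both differentiating arrays are needed for any call: leaving out 1 array at a time gave 0 to 534 called genes and 0 for the difference between conditions, with a lone differentiating array assumed to vary like the proliferating ones. Called genes numbered 285 with median centring, 1586 with the differentiating arrays alone, 969 without proliferating replicates 3 and 4, and 2413 with array weights. For the difference, called genes numbered 81 with Agilent's processed signals, 18 with the filter on both differentiating arrays, 24 without a dye term, 216 with array weights, 53 with an intensity trend and 19 with the replicate block, which called 573 genes for the differentiating comparison, 556 of them shared. They numbered 0 with median centring, with no filter on dim probes, with the mean of a gene's probes and without proliferating replicates 3 and 4 (1582, 2865, 2106 and 2125 at an unadjusted p under 0.05). The fitted ratio of some genes that were not called changed sign when 1 of the 6 arrays was left out, only where it was a differentiating array. The ratio of the remaining differentiating array was then shifted by a dye term fitted to the proliferating arrays alone. Over these 6 fits the log2 ratio ranged from -0.904 to 0.227 for Olig1, -0.226 to 0.4 for Hey1, -0.189 to 0.999 for Plin2, -0.238 to 1.793 for Egr2, -0.155 to 0.147 for Dnmt1, -0.174 to 0.304 for Xist, -1.032 to 0.276 for Pdgfra, -0.658 to 1.126 for Elavl3, -0.103 to 0.612 for Pcna, -0.143 to 0.281 for Prx, -0.022 to 0.182 for Cdk6 and -0.148 to 0.37 for Ddx3y. These fitted values are not the ratios of single arrays. On replicates 1 and 2 Pdgfra was at -0.30 and -0.45 and Olig1 at -0.57 and -0.10, while for others, such as Cdk6, the arrays themselves differed in sign. The slide as a block was not run, since slide and condition cannot be told apart. Genes not well above background in 1 genotype have only a bound there.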
